A study of Mus musculus with 34 samples.

Results

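The postsynaptic density is the protein mesh beneath the excitatory synapse, and 9 genes of its *Arc*, *Homer* and *Shank* scaffold are described here in the dorsal hippocampus after learning. The genes are *Arc*, *Homer1*, *Homer2*, *Homer3*, *Shank1*, *Shank2*, *Shank3*, *Dlg4* and *Dlgap1*. They were selected by their GENCODE mouse symbols, and all 9 were found among the 54532 genes of the bulk RNA-seq count table. All 9 also passed the filter on low counts, which left 22018 genes for testing. *Arc* and *Homer1* were set apart as inducible genes, and the other 7 were taken as constitutive scaffold genes.

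Bulk RNA-seq was performed on dorsal hippocampus from 8 adult male C57BL/6J mice, 2 to 3 months old. The homecage group held 4 mice that stayed in their cages, and the SOR group held 4 mice taken 1 h after training in spatial object recognition (SOR), a task in which mice learn the places of objects in an arena. Homecage mice did not enter the arena, so learning cannot be told apart from exploration or a new place. Each library is whole tissue, so more transcript per cell and more cells of a type cannot be told apart.

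In textbook terms the scaffold is built in layers. PSD-95, the product of *Dlg4*, sits beneath the membrane and holds glutamate receptors. The *Dlgap1* product GKAP joins PSD-95 to the Shank proteins, and Shank proteins bind Homer proteins, which tether group I metabotropic glutamate receptors and calcium channels of the endoplasmic reticulum. Long Homer proteins assemble through a coiled coil. The short form Homer1a, made by the same gene after neuronal activity, lacks that coiled coil and competes with the long forms. *Arc* is an immediate early gene, switched on within minutes of synaptic activity, whose protein assists the removal of AMPA receptors from the synapse and descends from a retrotransposon Gag protein.

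The libraries held between 51406011 and 81525977 estimated counts, so the members, with 67.7 to 511 CPM on average apart from *Homer3* at 31.1 CPM, rest on large counts. CPM are counts scaled to 1000000 per library with upper-quartile factors, and n = 4 mice per group throughout. Summed pan-neuronal markers spanned 4299 to 4616 CPM in the homecage group and 4333 to 4556 CPM after SOR. Of 13 marker lists for the cell types a dissection could hold, none had a marker past the adjusted p threshold. No summed level separated the groups. Among single markers, endothelial *Cldn5* had every SOR value below every homecage value (log2 fold change -0.30, adjusted p 0.199). All log2 fold changes were above 0 for CA1 pyramidal, choroid plexus and red blood cell markers. All were below 0 for CA3 pyramidal and mature oligodendrocyte markers. Choroid plexus markers varied most, from 24.0 to 1058 CPM in the homecage group and from 39.5 to 3894 CPM after SOR, with SOR replicate 1 highest. Without that mouse the log2 fold change was 1.38 for *Arc* and 0.38 for *Homer1*, against 1.42 and 0.43 with it. Mature oligodendrocyte markers spanned 4991 to 5451 CPM in the homecage group and 4090 to 5356 CPM after SOR. The part of oligodendrocyte, endothelial, CA1, CA3 or red blood cell content in the members' values was not tested.

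Among the 9 genes, *Arc* rose 2.68-fold and *Homer1* rose 1.34-fold after SOR, and no constitutive member passed the test. Genes counted as called where edgeR's quasi-likelihood test gave an adjusted p under 0.05 and the fold change exceeded 1.4. By that rule 1 of the 9 members was called higher and 0 were called lower, against 0.15% of all genes tested called higher and 0.0227% called lower. By adjusted p alone 2 members passed as higher and 0 as lower, where 0.273% of all genes passed as higher and 0.0363% as lower. The 4 SOR values lay above all 4 homecage values for the same 2 members and below them for 0 members, a pattern that 2.99% of genes showed upward and 3.96% downward. The median log2 fold change was 0.03 over the 7 constitutive members and -0.02 over all genes tested.

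**Figure D1:**
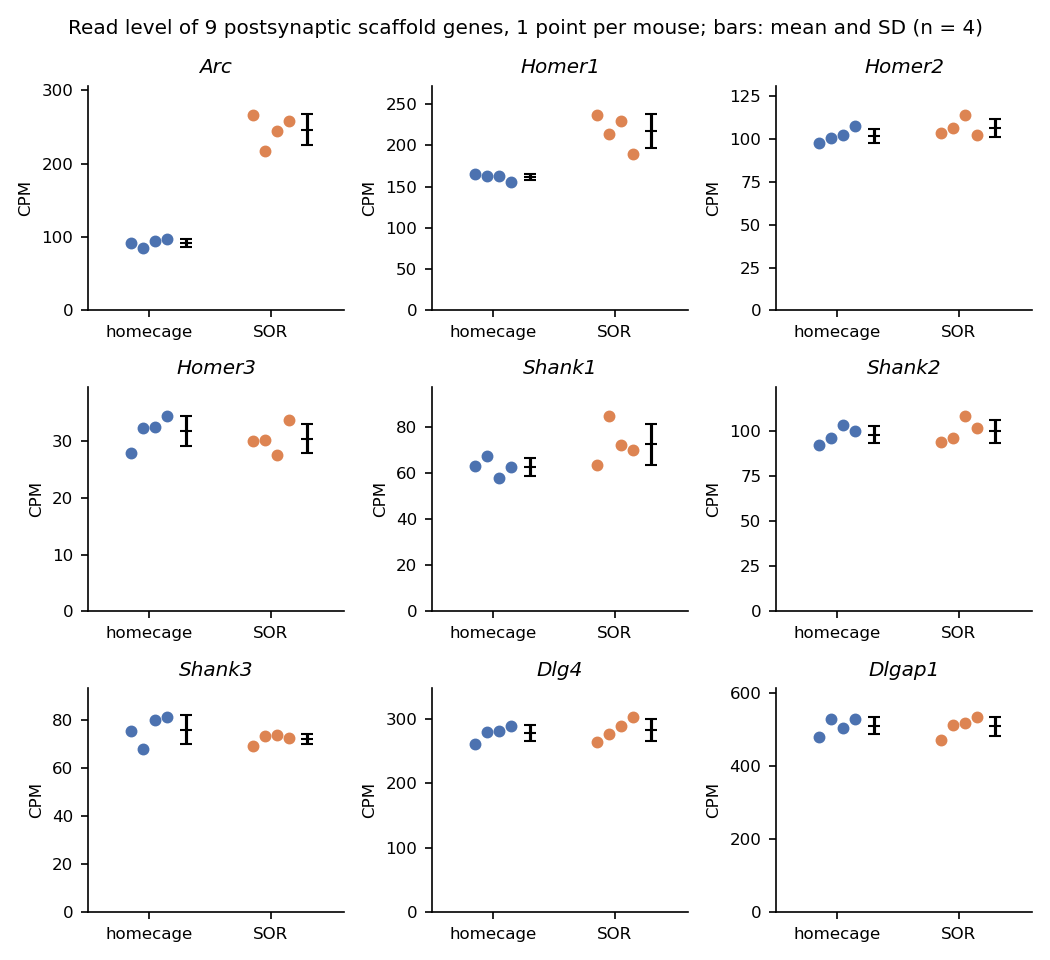
Level of each of the 9 scaffold genes in CPM on the vertical axis, with 1 point per mouse for 4 homecage and 4 SOR mice and bars for the mean and SD. The SOR points of *Arc* and *Homer1* lie above all homecage points, and the groups overlap for the other 7 genes.

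*Arc* (ENSMUSG00000022602; GRCm38 chr15:74669083-74672570, minus strand) has 3 merged exon blocks, and its 2 annotated transcripts are nearly equal in length. Its level was 91.2, 85.4, 94.1 and 97.0 CPM in homecage replicates 1 to 4. In SOR replicates 1 to 4 it was 266, 218, 244 and 258 CPM. The lowest trained mouse stood well above the highest homecage mouse, so the groups were far apart. The log2 fold change was 1.42 (SE 0.0646, 95% confidence interval 1.28 to 1.56, adjusted p 8.27e-06), which ranked 1 by p among all genes tested. The exact two-sided permutation test gave p = 0.0286, the smallest that 4 against 4 mice allow. With any 1 mouse left out, *Arc* kept a log2 fold change of 1.38 to 1.48, at an adjusted p of at most 1.35e-04.

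*Homer1* (ENSMUSG00000007617; chr13:93299635-93405129, plus strand), the inducible member of its family, read 165, 163, 163 and 156 CPM in homecage replicates 1 to 4. It read 236, 214, 229 and 189 CPM in SOR replicates 1 to 4. All trained mice lay above all homecage mice, and SOR replicate 4 lay closest to them. That same mouse had more *Arc* than SOR replicates 2 and 3, so trained mice were not ordered alike by both genes. The log2 fold change of *Homer1* was 0.43 (SE 0.0625, 95% confidence interval 0.29 to 0.57, adjusted p 0.0208), with rank 37 by p. As a fold this was 1.34, with an interval from 1.22 to 1.48 that spans the 1.4 needed for a call. The exact two-sided permutation test gave p = 0.0286.

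The spread of *Homer1* differed between the groups. The coefficient of variation was 2.49% in the homecage mice and 9.58% in the trained mice. Over the 5501 genes whose mean CPM lay within the range of the members, the medians were 4.02% and 5.69%. The direction held with each mouse left out, at log2 fold changes of 0.38 to 0.48. The adjusted p stayed under 0.05 without SOR replicate 1, at 0.0394, and without SOR replicate 4, at 0.00424. It was 0.0583, 0.0826, 0.0703 and 0.0971 without homecage replicates 1 to 4 in turn, 0.0601 without SOR replicate 2 and 0.0631 without SOR replicate 3. It was 0.0693 when libraries were scaled to pan-neuronal markers, with a log2 fold change of 0.45.

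The count table sums all transcripts of a gene, which bears on *Homer1* more than on *Arc*. GENCODE M21 lists 12 *Homer1* transcripts, of which 11 are coding, with spliced lengths of 772 to 5713 bases. Of the coding transcripts, 4 end more than 15 kb before the end of the gene and 7 run to within 15 kb of it. Homer1a belongs to the early-ending kind. The share of each form in the 1.34-fold rise was not measured by these values.

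**Figure D2:**
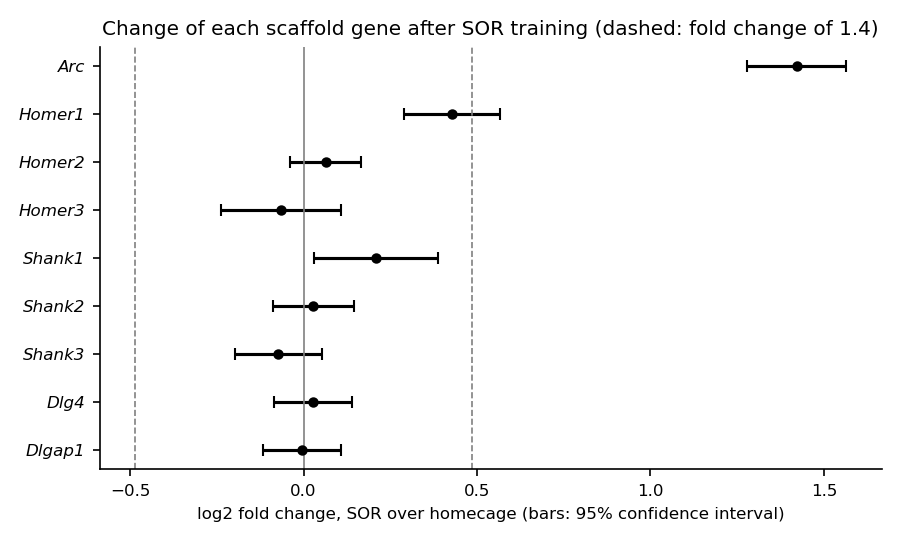
Log2 fold change of SOR over homecage for each scaffold gene, with 95% confidence intervals from the edgeR fit (n = 4 mice per group) and dashed lines at a fold change of 1.4. The interval of *Arc* lies beyond the dashed line, that of *Homer1* crosses it and lies above 0, and those of the other 7 genes do not reach it.

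The stretch before a start site of *Homer1* is shown because inducible and constitutive members could be set side by side there. RefSeq promoter sequences (GRCm38.p6) were held for 6 members in 11 entries, and the 250 bases before the start were read for each. *Arc*, *Shank1* and *Shank2* had no entry. The searches on both strands covered the cAMP response element (CRE) TGACGTCA, its core TGACG, which lies within the CRE, the TATA box TATAAA, the EGR site GCGTGGGCG, the AP-1 site TGANTCA, the E box CACGTG and the CArG box. Each sequence below runs 5′ to 3′ on the strand of the gene up to the base before the start, and capitals mark a match.
Homer1, chr13:93303507-93303756, plus strand: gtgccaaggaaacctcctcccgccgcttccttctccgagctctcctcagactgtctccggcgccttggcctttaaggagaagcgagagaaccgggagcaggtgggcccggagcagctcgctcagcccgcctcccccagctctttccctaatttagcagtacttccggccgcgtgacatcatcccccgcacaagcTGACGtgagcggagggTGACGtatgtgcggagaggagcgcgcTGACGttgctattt
Homer2, chr7:81706926-81707175, minus strand: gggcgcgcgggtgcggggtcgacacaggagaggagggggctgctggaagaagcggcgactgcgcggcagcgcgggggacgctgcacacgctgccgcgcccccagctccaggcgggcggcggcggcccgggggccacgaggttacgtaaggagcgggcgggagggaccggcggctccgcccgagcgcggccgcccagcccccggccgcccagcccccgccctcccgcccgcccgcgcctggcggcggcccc
Shank3, chr15:89499358-89499607, plus strand: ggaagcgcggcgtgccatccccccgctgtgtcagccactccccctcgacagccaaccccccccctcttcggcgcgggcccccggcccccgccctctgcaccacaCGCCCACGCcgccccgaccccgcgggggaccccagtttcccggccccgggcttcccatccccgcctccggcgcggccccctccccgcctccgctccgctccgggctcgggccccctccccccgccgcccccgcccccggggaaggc
Dlgap1, chr17:69968823-69969072, plus strand: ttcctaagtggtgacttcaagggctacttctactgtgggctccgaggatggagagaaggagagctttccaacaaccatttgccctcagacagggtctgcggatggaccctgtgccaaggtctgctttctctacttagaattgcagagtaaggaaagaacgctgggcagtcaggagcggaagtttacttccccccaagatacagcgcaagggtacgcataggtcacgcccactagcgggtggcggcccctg

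The *Homer1* stretch held 3 copies of TGACG, at -56 to -52, -40 to -36 and -14 to -10 from the start, all on the plus strand. At least 1 copy was present in 17.8% of all 32851 RefSeq promoters of this length, and at least 3 copies in 0.688%. The count of 3 was looked up after the matches had been seen. The full CRE, found in 1.55% of promoters, was not among the letters of this stretch. The second *Homer1* entry (chr13:93307784-93308033) held no match to any of the motifs searched. Among constitutive members, 1 of the *Dlg4* entries held TGACG too, in 1 copy at -76 to -72 on the plus strand. The *Shank3* stretch held an EGR site on the minus strand at -146 to -138, which 0.536% of promoters hold. The *Homer2* and *Dlgap1* stretches printed above held no match, while a second *Homer2* entry held a TATA box at -170 to -165 and a second *Dlgap1* entry an E box at -102 to -97. The TATA box was in 12.4%, the AP-1 site in 6.75%, the E box in 6.02% and the CArG box in 1.47% of promoters. These matches describe letters only.

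*Homer2* and *Homer3*, which encode long Homer proteins, overlapped between the groups. *Homer2* (ENSMUSG00000025813; chr7:81600481-81707527, minus strand) was at 97.6, 101, 102 and 107 CPM in homecage and at 104, 107, 114 and 102 CPM in SOR replicates 1 to 4. Its log2 fold change was 0.06 (SE 0.0458, 95% confidence interval -0.04 to 0.16, adjusted p 0.696). *Homer3* (ENSMUSG00000003573; chr8:70282827-70294361, plus strand) was at 27.9, 32.2, 32.5 and 34.3 CPM in homecage and at 30.1, 30.2, 27.6 and 33.8 CPM in SOR. The groups of *Homer3* covered nearly the same range. Its log2 fold change was -0.06 (SE 0.0778, 95% confidence interval -0.24 to 0.11, adjusted p 0.839). *Ddx49* on the other strand reaches a *Homer3* exon and averaged 15.97 CPM, so reads of the overlap cannot be assigned where strand was not used in counting.

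The Shank genes encode the large scaffold proteins that link GKAP to Homer. *Shank1* (ENSMUSG00000038738; chr7:44310253-44360572, plus strand) was at 62.9, 67.5, 58.0 and 62.7 CPM in homecage and at 63.5, 84.7, 72.2 and 69.9 CPM in SOR replicates 1 to 4. SOR replicate 1 lay within the homecage range, while SOR replicate 2 stood above every other mouse. The log2 fold change of 0.21 (SE 0.0808, 95% confidence interval 0.03 to 0.39) had an unadjusted p of 0.0264 and an adjusted p of 0.426. Such an unadjusted p under 0.05 was held by 2213 of the genes tested. Without SOR replicate 2 the *Shank1* log2 fold change was 0.13 (adjusted p 0.550), and without SOR replicate 1 it was 0.27 (adjusted p 0.260). With all mice, the alternatives gave adjusted p from 0.0736 (likelihood ratio test with 2 RUVs factors) to 0.516 (edgeR without a filter).

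*Shank2* and *Shank3* gave intervals that included 0. *Shank2* (ENSMUSG00000037541; chr7:144001928-144424494, plus strand) was at 92.4, 96.4, 103 and 99.9 CPM in homecage and at 93.8, 96.3, 108 and 101 CPM in SOR. Its log2 fold change was 0.03 (SE 0.0528, 95% confidence interval -0.09 to 0.14, adjusted p 0.905). *Shank3* (ENSMUSG00000022623; chr15:89499623-89560261, plus strand), whose loss in humans causes Phelan-McDermid syndrome, was at 75.1, 67.7, 79.8 and 81.0 CPM in homecage and at 69.1, 73.3, 73.6 and 72.6 CPM in SOR. Its trained mice fell inside the homecage range. The log2 fold change was -0.07 (SE 0.0567, 95% confidence interval -0.20 to 0.05, adjusted p 0.721).

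*Dlg4* and *Dlgap1*, the layers nearest the membrane, had log2 fold changes close to 0. *Dlg4* (ENSMUSG00000020886; chr11:70016942-70047522, plus strand) was at 260, 279, 281 and 289 CPM in homecage and at 264, 276, 289 and 302 CPM in SOR. Its log2 fold change was 0.03 (SE 0.0509, 95% confidence interval -0.08 to 0.14, adjusted p 0.899). *Dlgap1* (ENSMUSG00000003279; chr17:69969073-70821413, plus strand) was at 481, 531, 506 and 529 CPM in homecage and at 473, 512, 520 and 535 CPM in SOR. The groups of both genes overlapped over most of their range. The log2 fold change of *Dlgap1* was -0.0041 (SE 0.0504, 95% confidence interval -0.12 to 0.11, adjusted p 0.990), and its sign turned under other scalings. As folds, the intervals of the constitutive members other than *Shank1* ran from 0.849 at the lowest to 1.12 at the highest, and that of *Shank1* from 1.02 to 1.31.

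Setting inducible against constitutive members within each library takes the library scaling out of the comparison. The mean log2 CPM of *Arc* and *Homer1* minus that of the 7 constitutive genes was 0.21, 0.08, 0.14 and 0.08 in homecage replicates 1 to 4. It was 1.23, 0.90, 1.04 and 0.93 in SOR replicates 1 to 4. Trained mice lay above all homecage mice, and the group means differed by 0.89 on the log2 scale. No test was made of this difference, since the genes were chosen with earlier results known.

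Gene by gene, the log2 ratio of an inducible to a constitutive member changed by 0.22 to 1.49 over 14 pairs, with a median of 0.85. The groups did not overlap in 11 of the 14 pairs. These were all 7 ratios with *Arc*, and those of *Homer1* to *Homer2*, *Shank2*, *Shank3* and *Dlgap1*. The ratios of *Homer1* to *Homer3*, *Shank1* and *Dlg4* overlapped between the groups. Each of the 14 pairs holds *Arc* or *Homer1*, so the pairs are not separate results. No share over all gene pairs was taken. Among the 21 pairs of constitutive members the change ran from -0.27 to 0.27, and the groups overlapped in all 21. The ratio of *Dlg4* to *Dlgap1* varied little, at -0.88 ± 0.03 in homecage and -0.85 ± 0.03 in SOR mice (SD, n = 4). The inducible genes also moved apart from each other, since the log2 ratio of *Arc* to *Homer1* went from -0.82 ± 0.11 to 0.18 ± 0.18 (SD, n = 4).

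Levels were compared between genes as CPM per kb of merged exons. In homecage mice *Arc* stood at 30.1 ± 1.63 and *Dlgap1* at 28.6 ± 1.31 CPM per kb (SD, n = 4), and the ranges of these genes overlapped. *Dlg4* followed at 20.9 and *Homer1* at 13.5 CPM per kb, each apart from its neighbours. *Homer3* at 9.23, *Shank2* at 9.10, *Shank3* at 8.26 and *Homer2* at 8.08 CPM per kb overlapped each with the next, and *Shank1* was lowest at 5.97. In SOR mice *Arc* reached 80.6 ± 6.88 CPM per kb and no longer overlapped with *Dlgap1* at 28.5. *Dlg4* stood at 21.3 and *Homer1* at 18.1 CPM per kb, their ranges only just apart. The other members lay between 6.90 CPM per kb for *Shank1* and 9.28 for *Shank2*.

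The order of levels depended on the length taken. Per kb of the longest coding transcript, a choice added after the data had been seen, *Dlgap1* led in homecage mice at 71.3 CPM per kb. It was followed by *Dlg4* at 43.8, *Arc* at 30.1 and *Homer1* at 28.3, the ranges of *Arc* and *Homer1* overlapping. The longest coding transcript of *Homer1*, at 5713 bases, is of the early-ending kind. In SOR mice *Arc* at 80.6 and *Dlgap1* at 71.1 CPM per kb overlapped, ahead of *Dlg4* at 44.7 and *Homer1* at 38.03. By either length the Shank genes, *Homer2* and *Homer3* were below *Homer1* in both groups.

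**Figure D3:**
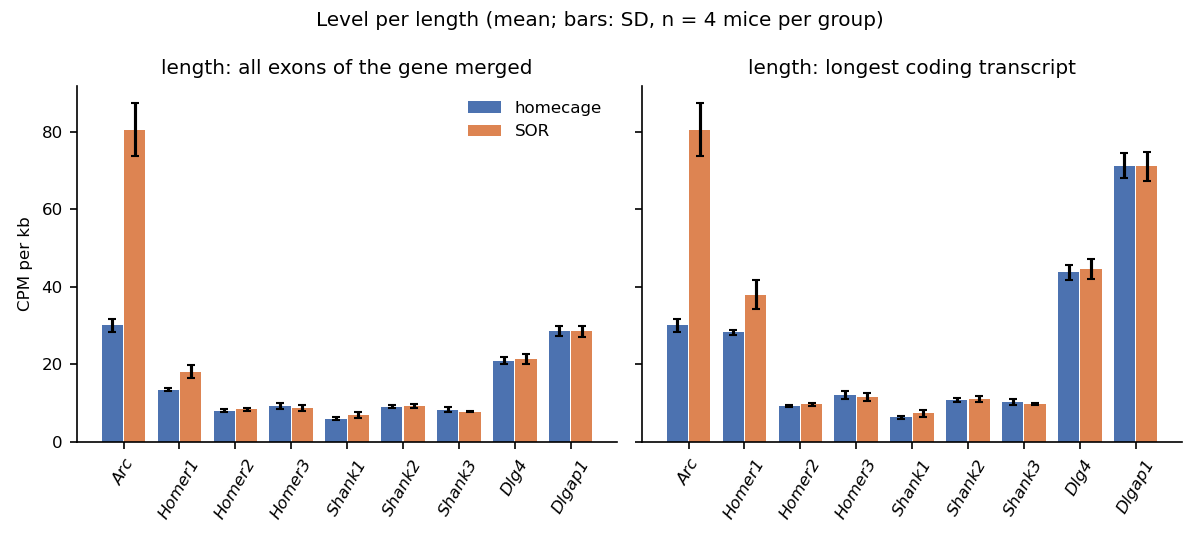
Mean level in CPM per kb of the 9 scaffold genes in homecage and SOR mice (bars from 0; error bars are SD, n = 4 mice per group), by merged exons on the left and by the longest coding transcript on the right. *Arc* goes from 30.1 to 80.6 CPM per kb by either length, while the place of *Dlgap1* and *Dlg4* beside it depends on the length.

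Within its family *Homer1* took a larger share after SOR. Of the summed Homer level per kb of merged exons, *Homer1* took 43.8% ± 2.13 in homecage and 51.1% ± 3.08 in SOR mice (SD, n = 4). The mice did not overlap, with 41.3% to 46.5% in homecage and 46.9% to 53.8% after SOR. *Homer2* went from 26.2% to 23.9% and *Homer3* from 29.9% to 25.0%. Shares within a family are tied, so a larger share of *Homer1* lowers the others. The size of the shares depends on the length taken. In homecage mice *Homer1* was at 13.5 CPM per kb of merged exons but at 28.3 per kb of its longest coding transcript, an early-ending one. Among the Shank genes, *Shank2* took 39.0% in homecage and 38.6% in SOR mice, *Shank3* 35.4% and 32.7%, and *Shank1* 25.6% and 28.7%.

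The genes most like each member over the 8 mice were taken as the 3 with the highest Pearson correlation of log2 CPM among 16353 genes of at least 1 CPM. For *Arc* these were *Snx17* (r = 0.996), *Dnajb5* (r = 0.992) and *Per2* (r = 0.992). All 3 passed the test, with log2 fold changes of 0.42, 0.51 and 0.80. For *Homer1* they were *Thap2* (r = 0.992), *Pde7a* (r = 0.990) and *Nufip2* (r = 0.987), of which *Nufip2* passed, at a log2 fold change of 0.22 and an adjusted p of 0.0400. These values share the 8 libraries and the contrast between groups, and they are the highest of many, so they are descriptions.

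The constitutive members had other nearest genes. They were *Usf3*, *Gm49405* and *Gm45041* for *Homer2*, with r from 0.937 to 0.949, and *Mcm3*, *Sash1* and *Zfand2b* for *Homer3*, with r from 0.975 to 0.988. *Shank1* was closest to *Rev1*, *Jmjd1c* and *Gm48871* (0.931 to 0.949), *Shank2* to *Chst1*, *4833420G17Rik* and *Col26a1* (0.949 to 0.967), and *Shank3* to *Tek*, *Gm45605* and *Gpr171* (0.911 to 0.944). *Dlg4* was closest to *Mast3*, *Atp6v1g2* and *BC024978* (0.962 to 0.966) and *Dlgap1* to *Phf11d*, *Bcl7a* and *Nfasc* (0.973 to 0.980). None of these neighbours of constitutive members passed the test.

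The listed genes of the synaptic scaffold and of the *Arc* and *Homer* pathways did not pass the reported test. Over 8 lists, 129 of 131 genes were tested and 0 passed in either direction. An unadjusted p under 0.05 was held by 18 of the 129, where 2213 of all 22018 genes tested held one. The median log2 fold change of the 129 was -0.0024. DESeq2, run as an alternative, passed 5 of them, all higher after SOR, namely *Nptx2*, *Inhba*, *Vgf*, *Rasl11a* and *Srf*, while limma-voom passed 0. The likelihood ratio test of edgeR passed *Nptx2*, and with 1 to 3 RUVs factors it passed 3 to 5 genes, which added *Crebbp* (2 and 3 factors) and *Bdnf* (3 factors) to those named. Over all genes, the reported test called 38 by adjusted p and fold together. DESeq2 called 114, the likelihood ratio test 105, and that test with RUVs factors 134 to 203. The share of all genes these alternatives passed by adjusted p alone is not given, so their counts of listed genes have no matching background. Of the 129 genes, 63 lay above 0, where 43.8% of all genes tested did. In 8 of them all SOR values lay above all homecage values and in 4 below, where 2.99% and 3.96% of all genes did. *Pnma5*, at no more than 0.234 CPM, did not pass the filter on low counts, *Pnma8a* was tested under its RefSeq symbol *Pnmal1*, and *Pnma8b* was matched to no symbol of the table. A gene may sit in more than 1 list, and none of the lists was tested as a set.

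Among the 6 other DLG and DLGAP scaffold genes, the values ran from *Dlgap3* at -0.14 (SE 0.0679, adjusted p 0.523) to *Dlgap4* at 0.11 (SE 0.0645, adjusted p 0.628). Among 29 further scaffolds and adaptors they ran from *Cask*, a membrane-associated guanylate kinase, at -0.13 to *Cttnbp2*, a cortactin-binding protein of spines, at 0.12, with a median of -0.0037. The value of *Cask* was -0.05 without homecage replicate 1, which read 101 CPM where the other homecage mice read 82.8 to 83.2 CPM. The 18 postsynaptic adhesion molecules, which include neuroligins and LRRTM proteins, had a median of -0.04 and ran from *Slitrk1* at -0.12 to *Ptprf* at 0.09. None of these scaffold and adhesion genes had groups that did not overlap.

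The 13 listed genes for proteins that bind Homer, mostly channels and receptors, had a median log2 fold change of -0.0023. *Itpr1*, the IP3 receptor that releases calcium from the endoplasmic reticulum, was at 735 ± 27.5 CPM without training and 770 ± 52.2 CPM after SOR (SD, n = 4). *Ryr1*, a ryanodine receptor, had the lowest value of the list, -0.46 (SE 0.211, adjusted p 0.506), and its groups overlapped. Of the 18 partners and turnover factors of Arc, *Rnf216*, a ubiquitin ligase for Arc, had the highest value at 0.13 (adjusted p 0.381), and *Eif4a3*, of the exon junction complex that marks *Arc* mRNA for decay, the lowest at -0.25 (adjusted p 0.536). *Sh3gl3*, an endophilin that binds Arc, had every SOR value below every homecage value, at -0.16 (adjusted p 0.400). Such a pattern was shown by 3.96% of all genes.

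The 14 regulators of *Arc* transcription had 10 values above 0 and a median of 0.06. *Srf*, the serum response factor, had every SOR value above every homecage value, at 36.9 ± 2.31 CPM without training and 42.0 ± 1.83 CPM after SOR (SD, n = 4), a log2 fold change of 0.19 (adjusted p 0.277). *Mef2d* had the highest value, 0.29, but overlapped between the groups (adjusted p 0.592). *Crebbp*, the CREB-binding acetyltransferase, was at 0.15 (SE 0.0785, adjusted p 0.565). *Hdac3*, a histone deacetylase, had the lowest, -0.10, with every SOR value below every homecage value (adjusted p 0.453). Groups that did not overlap were seen upward in 2.99% and downward in 3.96% of all genes.

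The 16 other activity-regulated effector genes had 14 values above 0 and a median of 0.12, where 43.8% of all genes lay above 0. The highest was *Nptx2*, a secreted pentraxin that clusters AMPA receptors, at 15.0 ± 1.51 CPM without training and 20.0 ± 1.76 CPM after SOR (SD, n = 4). Its log2 fold change of 0.41 (SE 0.0901) was close to the 0.43 of *Homer1*, but its adjusted p was 0.122. The groups did not overlap for *Nptx2*, *Plk2*, *Inhba*, *Vgf*, *Rasl11a* and *Plat*, at log2 fold changes of 0.11 to 0.41. That is 6 of 16 genes, where 2.99% of all genes did so upward. The list was chosen with earlier results of these data known, so its counts are descriptions. *Bdnf*, a neurotrophin, was at 0.17 (SE 0.0626, adjusted p 0.400). *Rgs2* had the lowest value, -0.08 (adjusted p 0.744).

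The other genes descended from retrotransposon Gag proteins did not pass the test as *Arc* did. Of these, 16 were tested, with 5 values above 0 and a median of -0.05. *Rtl1*, an imprinted gene best known in placenta, had the highest value, 0.25 (SE 0.0870, adjusted p 0.364), and *Pnma1*, an antigen of paraneoplastic disease, the lowest, -0.36 (SE 0.143, adjusted p 0.432). The groups of both genes did not overlap. *Zcchc18* likewise had every SOR value below every homecage value, at -0.11 (adjusted p 0.329). Of all genes tested, 2.99% showed such a pattern upward and 3.96% downward.

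**Figure D4:**
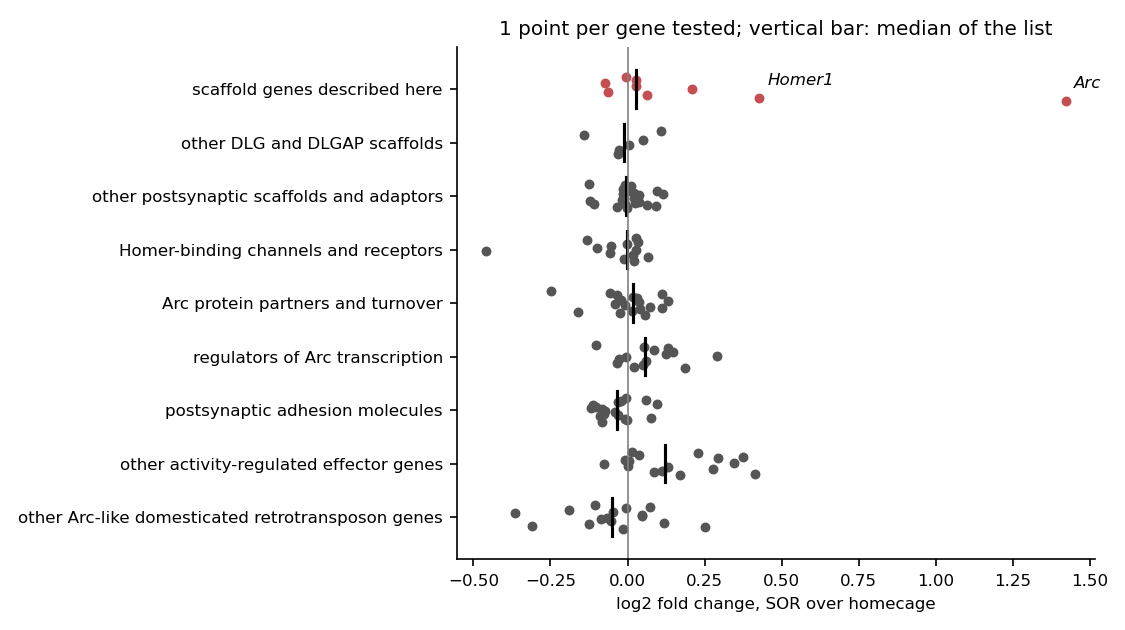
Log2 fold change of SOR over homecage for each tested gene of the scaffold group and of 8 pathway lists, with 1 point per gene and a vertical bar at the median of each list. *Arc* at 1.42 and *Homer1* at 0.43 stand at the right, and the list of other activity-regulated effector genes has the highest median of the 8 lists, 0.12.

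**Figure D5:**
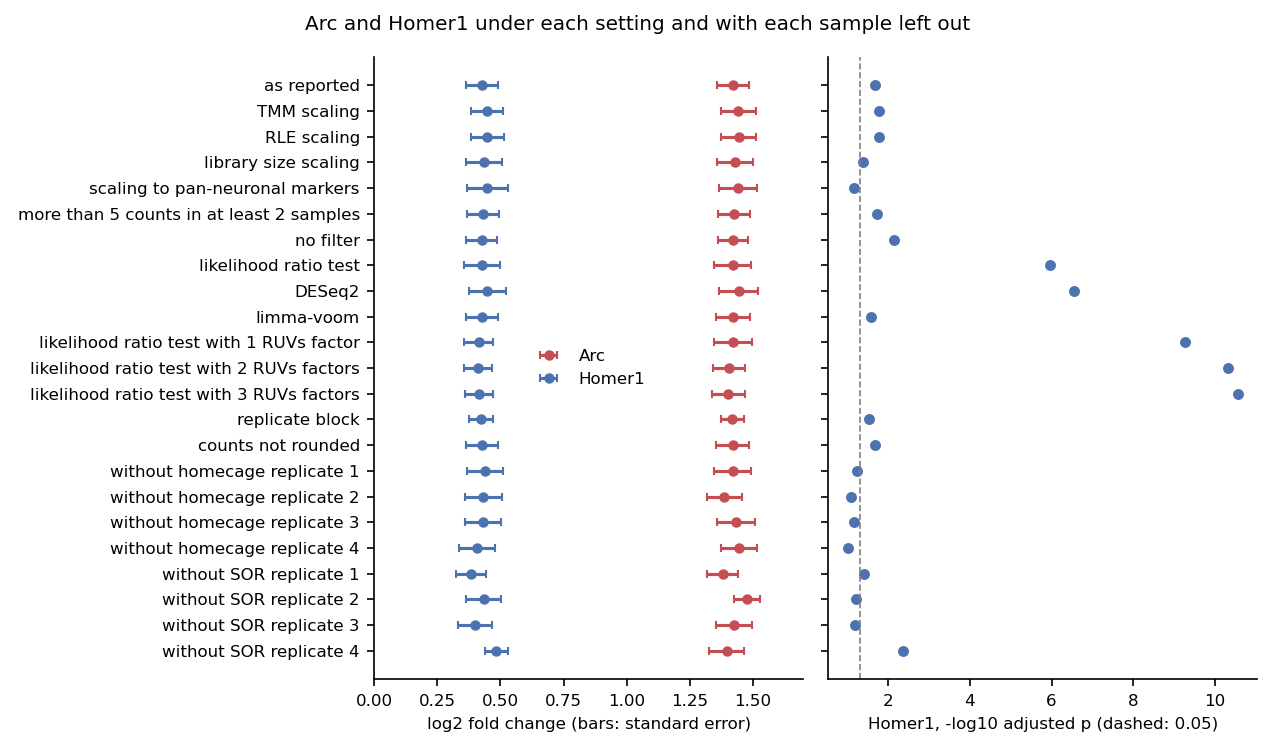
Log2 fold change with its standard error for *Arc* and *Homer1* on the left, and -log10 of the adjusted p of *Homer1* on the right (dashed line at 0.05), for the reported test, each alternative and each mouse left out. *Arc* stays between 1.38 and 1.48 and *Homer1* between 0.38 and 0.48, while the adjusted p of *Homer1* crosses the line.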

How the data were processed

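Bulk RNA-seq libraries came from the dorsal hippocampus of 4 homecage and 4 SOR mice. The study names a kit that depletes ribosomal RNA, while the labels name polyA RNA. Reads were aligned with STAR within bcbio-nextgen (mm10 per the labels). The values deposited by the authors are estimated counts per gene summarised with tximport, not normalized, and 52.6% of them are not whole numbers. The methods name featureCounts, and whether counts were scaled by length, or strand was used, is not given in the sources used here. Spatial, ATAC and single-nucleus samples were not analysed here.

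Counts were rounded and filtered with filterByExpr, and 22018 genes were fitted in edgeR 4.0.16 (R 4.3.3; quasi-likelihood F test), with upper-quartile scaling, no covariate and Benjamini-Hochberg adjustment over all genes tested. The study also removed RUVs factors of unstated number, which were tried as alternatives with DESeq2 1.42.0, limma 3.58.1, other scalings and filters, and each mouse left out. Standard errors are the log2 fold change over the root of F. The fit was tested on simulated data. Totals were 51406011 to 81525977 per library. Replicates differed by more than counting noise (chi-square per degree of freedom 12.0 to 54.0). Differences between mice, dissections and library preparations cannot be told apart in this spread. Positions and lengths came from GENCODE M21 (GRCm38).

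Every member was named, with the 3 genes most like it and, from each pathway list, any gene past the threshold and otherwise the highest and lowest value. Genes whose groups did not overlap were named after their values were seen, as were *Bdnf*, *Crebbp* and the promoters printed beside that of *Homer1*. The members and lists were chosen with earlier results of these data known.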

Additional observations from a re-analysis of the deposited data

Results flagged for a closer look

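In 6 of 148 groups of 4 values checked, the highest or lowest mouse stood farther from the rest than Dixon's 95% limit allows, where chance gives about 1 in 20. None was a value of *Arc*, a Homer or Shank gene, *Dlg4* or *Dlgap1*. *Cask* was at 101 CPM in homecage replicate 1, against 82.8 to 83.2 CPM in the other homecage mice. Homecage replicate 2 had 36.2 CPM of *Sh3gl3* (33.5 to 33.7 in the others), 6.85 CPM of *Rasl11a* (5.79 to 5.93) and the lowest sum of endothelial markers, 80.5 CPM (95.6 to 97.4). SOR replicate 1 had 300 CPM of *Plk2* (276 to 278 in the other trained mice) and the lowest level of *Bcl7a*, 46 CPM (53.7 to 54.9).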

How the results depend on the processing

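*Arc* kept its direction and its side of the threshold under all 14 alternatives over all mice, at log2 fold changes of 1.404 to 1.444, and with each mouse left out, at 1.38 to 1.48. *Homer1* did so under 13 of 14 alternatives, with adjusted p from 2.83e-11 to 0.0693. The exception was scaling to pan-neuronal markers (log2 fold change 0.45, adjusted p 0.0693), which left 1 member rather than 2 past the adjusted p threshold. With a mouse left out, *Homer1* ranged from 0.38 to 0.48 and passed in 2 of 8 fits, so that 1 to 2 members passed; why fewer mice cost the call was not tested. Without the fold threshold 2 members were called instead of 1. The difference between inducible and constitutive members was 0.83 to 0.93 with a mouse left out.

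Over all genes, 38 were called (33 higher, 5 lower). The likelihood ratio test called 105 (69 and 36), DESeq2 114 (82 and 32), and the likelihood ratio test with 1, 2 and 3 RUVs factors 134 (83 and 51), 191 (104 and 87) and 203 (105 and 98). Without the fold threshold 68 were called (60 and 8). With a mouse left out 22 to 38 were called, 22 without homecage replicate 2 and 25 without homecage replicate 4. The causes were not tested.

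Values near 0 changed sign. *Dlgap1* was at 0.016 with TMM, 0.017 with RLE, 0.0020 with library size and 0.016 with pan-neuronal scaling, 0.00098 with a filter that asks for over 5 counts in 2 or more samples, 0.017 with DESeq2, and 0.00027, 0.0046 and 0.0050 with 1, 2 and 3 RUVs factors. With a mouse left out it ranged from -0.030 to 0.029, *Shank2* from -0.012 (without SOR replicate 3) to 0.056 and *Dlg4* from -0.0081 (without SOR replicate 4) to 0.059.

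Mice with the same replicate number did not deviate together (r from -0.082 to 0.046, against -0.173 to 0.192 for other numbers). The sample titles give no pairing, and so few correlations cannot exclude one. With the replicate number as a block, 30 genes were called (27 and 3), *Arc* was at 1.42 (adjusted p 5.79e-05) and *Homer1* at 0.42 (adjusted p 0.0301), and 1 member was called.

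Of the 129 pathway genes, none passed in the reported test or with other scalings, filters or limma-voom, while 1 passed with the likelihood ratio test (*Nptx2*) and 3, 5 and 5 with 1, 2 and 3 RUVs factors. The likelihood ratio fits also called more of all genes, as given above, and their share by adjusted p alone is not given. No constitutive member passed under any of the 14 alternatives. Among named pathway genes that did not pass, 1 mouse moved the log2 fold change by over 1.5 times for *Eif4a3* (-0.08 without homecage replicate 2), *Slitrk1* (-0.05 without SOR replicate 1), *Mef2d* (0.13 without SOR replicate 4) and *Ryr1* (-0.71 without SOR replicate 2), among others.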
